A study of Homo sapiens with 16 samples.

Results

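Inflammatory chemokines and cytokines of the IL6 family were followed through 16 RNA-seq libraries of hepatocellular carcinoma (HCC) cells. The set was chosen by name, but with earlier results of these data known. It held 10 of the 26258 genes of the deposited table: the CXC chemokines CXCL1, CXCL2, CXCL3, CXCL5 and CXCL8, the CC chemokines CCL2 and CCL20, and the cytokines IL6, IL11 and LIF. Both lines studied, Huh7 and Hep3B, were derived from human liver cancers. For each line the groups were untreated parental cells, untreated cells labelled DMSO, IR cells made resistant by increasing concentrations of Sorafenib, and CR cells made resistant by a constantly high concentration, with 2 libraries in each of the 8 groups. Sorafenib is a multi-kinase inhibitor used against HCC. According to the labels, IR and CR cells were under 7 µM Sorafenib and the other groups were untreated, so exposure to the drug and resistance to it cannot be told apart in a comparison with parental cells. The labels' growth and treatment protocols name the Huh7 cells only, and what sets the cells labelled DMSO apart from parental cells is not described in the sources used here. The labels do not say that replicates came from separate cultures, so p-values measure the spread between these samples, which may be technical. Levels are given in CPM, read counts of a gene scaled to the same total in each library, and the libraries held 46613302 to 76860251 reads.

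Chemokines are small secreted proteins that steer leukocytes along a gradient. The CXC ligands of this set carry the ELR motif, bind CXCR2 and, for CXCL8, also CXCR1, and attract neutrophils. CCL2 attracts monocytes through CCR2, and CCL20 attracts dendritic cells and lymphocytes through CCR6. IL6, IL11 and LIF signal through a receptor complex that contains the shared chain gp130, encoded by IL6ST, and activate JAK kinases and STAT3. In the liver, IL6 is known as the main inducer of the acute phase proteins of hepatocytes. NF-kB, AP-1 and C/EBP factors are the textbook activators of these genes, and several of the transcripts carry AU-rich elements that bind decay factors.

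Hepatocyte markers were high in parental cells, and their sum was lower in resistant cells. The summed level of 9 markers, among them ALB and HNF4A, was 10691 and 16239 CPM in Huh7 parental, 111 and 460 in Huh7-IR, and 1369 and 2791 in Huh7-CR cells. It was 17133 and 21232 CPM in Hep3B parental cells, 3573 and 10336 CPM under IR and 1309 and 2135 CPM under CR. Of the 9, the number that fell was 8 (IR) and 7 (CR) in Huh7, and 3 (IR) and 6 (CR) in Hep3B cells. In the same order, 17.8%, 13.6%, 11.4% and 12.3% of all genes tested fell, and 31.1%, 20.9%, 15.7% and 20.0% rose. In Hep3B-IR cells 1 marker rose, SERPINA1, from 392 and 547 to 1161 and 2052 CPM, and HNF4A was not called, at 191 and 198 CPM in parental and 220 and 154 CPM in Hep3B-IR cells. The part of these markers in the results below was not tested. Of the leukocyte markers, CD3E and PTPRC reached at most 0.053 and 1.32 CPM in the 16 libraries. Of 5 tested, 1 rose and 3 fell in Huh7-IR, 2 rose and 1 fell in Huh7-CR, and 1 rose in each resistant Hep3B group. The shares of all genes are those given above. Of these 5, ITGAM passed the expression filter (1 CPM or more in 2 or more libraries) through Huh7-CR libraries alone. ITGAM thus had to be higher there. PTPRC fell in Huh7-IR (-0.93) and Huh7-CR cells (-0.69). It passed the filter through untreated Huh7 libraries alone, so that it had to be lower in resistant Huh7 cells. LYZ reached 58.8 CPM, and it was at 27.9 and 37.2 CPM in Huh7 parental and 1.09 and 6.80 CPM in Huh7-IR cells. CD68, a lysosomal protein of macrophages, rose in all 4 comparisons (3.62, 3.32, 2.19 and 1.78) to at most 71.9 CPM. The sum of the 8 listed was 37.6 and 45.0 CPM in Huh7 parental, 48.9 and 80.6 in Huh7-IR and 81.5 and 114 in Huh7-CR cells, and it was 11.5 and 22.3 CPM in Hep3B parental cells, 40.6 and 55.7 under IR and 41.7 and 32.4 under CR. Most of the Huh7-IR sum was CD68, at 47.0 and 71.9 CPM. The 5 endothelial markers summed to at most 6.36 CPM. Of 6 tested fibroblast markers, 5 rose and 1 fell in Huh7-IR and in Huh7-CR, 1 rose and 1 fell in Hep3B-IR and 1 rose in Hep3B-CR cells, with COL1A1 rising in all of them. These counts stand beside the same shares of all genes. Of the 6, ACTA2 passed the filter through resistant Huh7 libraries alone, so that it had to be higher there. The summed level of the fibroblast markers was 285 and 337 CPM in Huh7 parental, 316 and 340 in Huh7-IR and 499 and 782 in Huh7-CR cells. Most of the parental sum was LUM, at 277 and 329 CPM. In Huh7-IR cells LUM was at 31.9 and 48.9 CPM, while COL1A2 went from 4.38 and 5.16 to 202 and 218 CPM. The Hep3B sums were 37.1 and 27.8 CPM in parental, 86.9 and 33.2 in IR and 87.1 and 68.7 in CR cells. The part of the leukocyte and fibroblast markers in the results was not tested either. The DMSO replicates stood apart from each other. A list of 10 hypoxia-induced genes summed to 305 and 1033 CPM in Huh7 DMSO and to 229 and 524 CPM in Hep3B DMSO cells, so comparisons with DMSO cells are also given with replicate 1 alone where this matters. As these are bulk samples, fewer cells that make a transcript and less of it per cell cannot be told apart.

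The 5 CXC members lie in the chemokine cluster of chromosome 4. In GRCh37 with the GENCODE annotation, CXCL8 covers chr4:74606236-74609433 and CXCL1 chr4:74735110-74737025 on the plus strand, while CXCL5 covers chr4:74861359-74864394, CXCL3 chr4:74902306-74904524 and CXCL2 chr4:74962757-74964913 on the minus strand. CCL2 lies at chr17:32582293-32584227, CCL20 at chr2:228670455-228682280, IL6 at chr7:22765503-22771621, IL11 at chr19:55875750-55881831 and LIF at chr22:30636442-30642748. Reads were counted over the exons of these genes. RefSeq promoter sequences (GRCh38.p14) were given for 8 of the 10 genes, all but CCL2 and LIF. The 60 bases from 110 to 51 bases upstream of each RefSeq start are shown because each holds a kB or AP-1 motif, and each was placed in GRCh37 by its unique exact match. These RefSeq starts differ from the outer ends of the GENCODE genes for CXCL2, CXCL3, CXCL8, CCL20 and IL6. Capitals mark the first match to a kB motif, the binding sequence of NF-kB, and in IL11 to an AP-1 motif. They read 5′ to 3′ on the strand of the gene.
CXCL1: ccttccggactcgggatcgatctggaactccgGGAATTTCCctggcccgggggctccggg
CXCL2: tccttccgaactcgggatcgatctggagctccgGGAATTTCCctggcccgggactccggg
CXCL3: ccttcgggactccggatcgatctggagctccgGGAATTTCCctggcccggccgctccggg
CXCL5: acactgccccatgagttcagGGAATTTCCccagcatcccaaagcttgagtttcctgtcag
CXCL8: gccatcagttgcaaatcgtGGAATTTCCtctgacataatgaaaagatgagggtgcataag
CCL20: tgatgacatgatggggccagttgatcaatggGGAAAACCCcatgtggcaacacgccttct
IL6: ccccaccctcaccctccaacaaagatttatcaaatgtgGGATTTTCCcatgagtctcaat
IL11: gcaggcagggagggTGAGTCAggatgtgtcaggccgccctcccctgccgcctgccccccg

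The stretches lie at chr4:74735000-74735059 on the plus strand for CXCL1, chr4:74964963-74965022 on the minus strand for CXCL2, chr4:74904457-74904516 on the minus strand for CXCL3, chr4:74864445-74864504 on the minus strand for CXCL5 and chr4:74606176-74606235 on the plus strand for CXCL8. Those of CCL20 (chr2:228678448-228678507) and IL6 (chr7:22766709-22766768) are on the plus strand and that of IL11 (chr19:55881882-55881941) is on the minus strand. In the 250 bases upstream of the start, on either strand, GGAATTTCC was found in all 5 CXC members and in 0.413% of the 35116 promoters of the table. The wider form GGNNTTTCC, which includes the former, was also found in CCL20 (as its reverse complement) and in IL6, so in 7 of the 8 genes, and in 5.48% of all promoters. The AP-1 letters TGANTCA were in CXCL8 and IL11 and in 6.57% of all promoters. Aligned on the shared motif, which counts among the identical bases, the stretches of CXCL1 and CXCL3 were identical at 55 of 60 bases, those of CXCL1 and CXCL2 at 52 of 59, and those of CXCL5 and CXCL8 at 19 of 59. The transcripts of CXCL1, CXCL2 and CXCL3 are also alike, but 0.273%, 2.50% and 2.30% of their windows of 75 bases occur in another transcript of the CXC set, so that few reads of that length could be shared among them.

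Per kb of transcript, a scale on which genes can be compared, CCL20 was the most abundant member in parental cells, at 176 CPM per kb in Huh7 and 108 in Hep3B cells. CXCL5 followed in Huh7 at 57.2, with CXCL8 at 55.1 and CXCL1 at 50.7 CPM per kb, and in Hep3B cells CXCL5 reached 69.8, CXCL8 68.8 and CXCL1 35.3 CPM per kb. CXCL2 and CXCL3 stayed between 2.96 and 8.93 CPM per kb, and LIF was at 0.707 CPM per kb in Huh7 and 2.25 in Hep3B cells. IL11 was at 0.227 and 0.244 CPM per kb, and IL6 and CCL2 were under 0.1 CPM per kb in both lines. In resistant cells the order had changed. CXCL5 led in Huh7-IR cells with 30.1 CPM per kb, next to LIF with 11.9 and CXCL8 with 11.7, and CXCL5 led in Huh7-CR cells with 64.7. CXCL8 led in Hep3B-IR cells with 74.8 and in Hep3B-CR cells with 24.9 CPM per kb. These orders are of means of 2 libraries, and in replicate 2 CCL20 lay above CXCL8 in Hep3B-IR and CXCL5 above CXCL8 in Hep3B-CR cells. The parental orders also differed between replicates. CXCL8 lay above CCL20 in Hep3B parental replicate 1, and CXCL1 above CXCL5 and CXCL8 in Huh7 parental replicate 2.

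**Figure D1:**
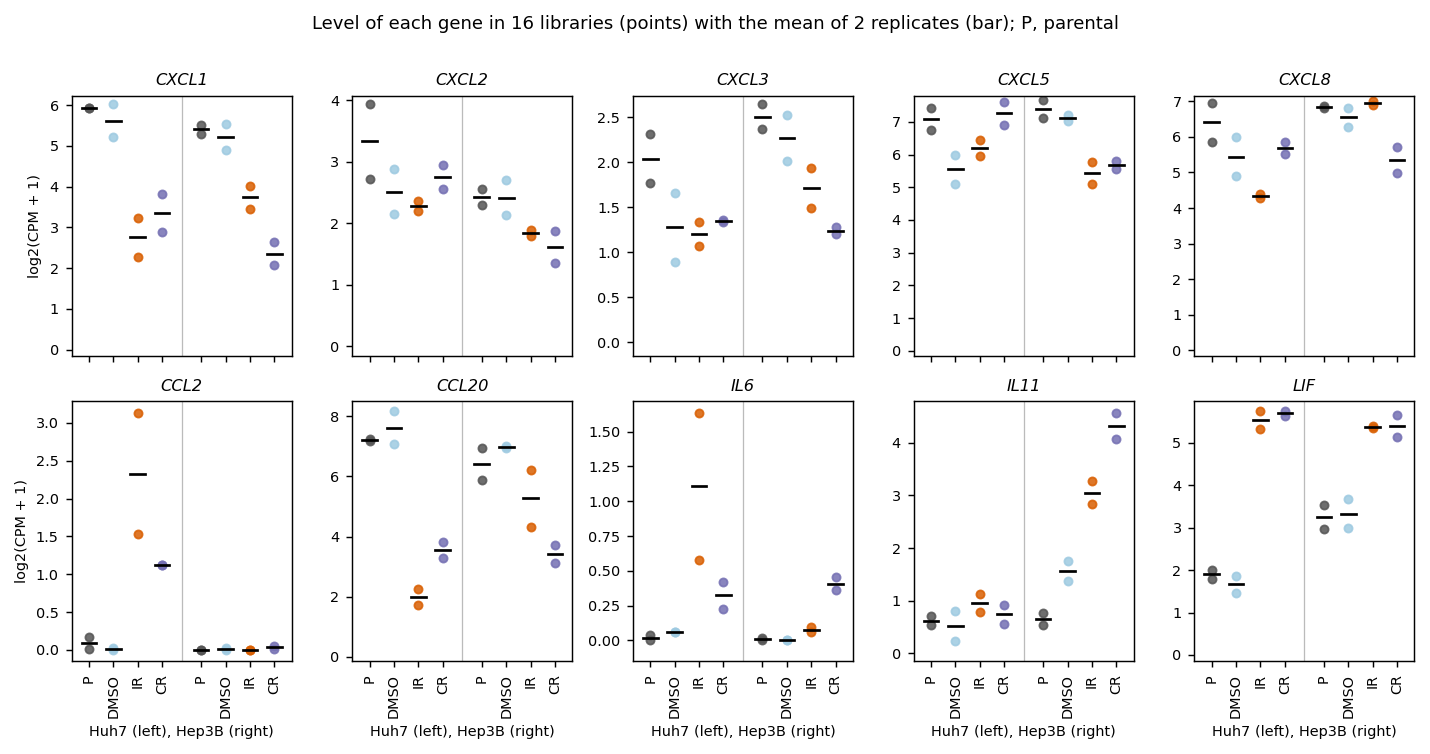
Level of the 10 genes as log2(CPM + 1) (vertical axis) in the 4 groups of Huh7 and the 4 groups of Hep3B cells (horizontal axis), where points are libraries and bars are means of 2 replicates; the vertical scale differs between panels. LIF lies between 34.4 and 53.1 CPM in the 8 IR and CR libraries and at 11.7 CPM or less in the other 8, and CXCL1 shows the opposite order.

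To learn how the set differed between resistant and parental cells, IR and CR cells of each line were compared with their parental cells by limma on log2(CPM + 1). Calls required a Benjamini-Hochberg adjusted p under 0.05 over the 15019 genes tested, together with a log2 fold change of 0.58 or more in either direction, and "rose" and "fell" refer to such calls. A fold change on this scale understates the change of genes near 1 CPM. Of the 10 members, 9 passed the expression filter (1 CPM or more in 2 or more libraries). IL6 did not pass it. CCL2 passed it through the Huh7-IR and Huh7-CR libraries alone, so that it had to be higher there. LIF rose and CXCL1 fell in all 4 comparisons, and CCL20 fell in 3 of them. IL11 also rose in Hep3B cells, and CCL2 was called higher in Huh7 cells. IR and CR cells of a line share their parental libraries, so their changes are not independent.

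In Huh7-IR cells 2 of the 9 members rose, where 31.1% of all genes did, and 6 fell, where 17.8% of all genes did. In Huh7-CR cells 2 rose, against 20.9% of all genes, and 2 fell, against 13.6%. In Hep3B-IR cells 2 rose, against 15.7%, and 3 fell, against 11.4%. In Hep3B-CR cells 2 rose, against 20.0%, and 5 fell, against 12.3%. The share of members that rose was thus close to the background in every comparison, while the falls made up a larger share than among all genes in Huh7-IR, Hep3B-IR and Hep3B-CR cells. The 2 members that rose in each Huh7 comparison include CCL2, which had to be higher there. The 9 members had a median log2 fold change of -0.90 (IR) and -0.58 (CR) in Huh7, and -0.58 (IR) and -1.27 (CR) in Hep3B cells, beside medians of 0.19, 0.07, 0.06 and 0.11 over all genes tested. TMM factors moved the median of all genes in Huh7-IR cells to 0.04 and quantile normalization moved it to 0.00.

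**Figure D2:**
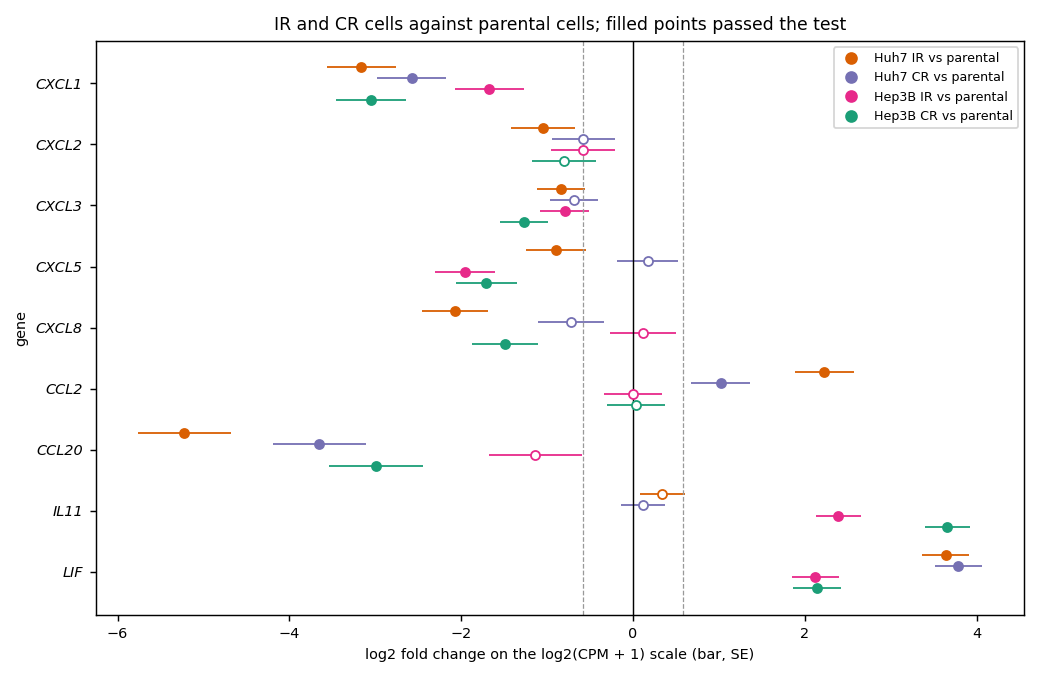
Log2 fold change (horizontal axis, on the log2(CPM + 1) scale, bars are SE) of the 9 tested genes (vertical axis) for the resistant cells of Huh7 and Hep3B against parental cells; filled points passed the test and dashed lines mark 0.58 on either side of 0. LIF lies to the right of 2 and CXCL1 to the left of -1.5 in all 4 comparisons, while IL11 is filled in Hep3B cells and CCL2 in Huh7 cells.

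CXCL1, a neutrophil attractant, fell in all 4 resistant lines. In the Huh7 line it was at 59.4 and 59.6 CPM in parental, 64.2 and 36.0 in DMSO, 3.85 and 8.45 in IR, and 6.34 and 13.0 in CR cells. In the Hep3B line it was at 38.1 and 44.9 CPM in parental, 45.0 and 28.7 in DMSO, 9.94 and 15.1 in IR, and 5.23 and 3.20 in CR cells. The 8 resistant libraries all lay below the 8 others, and among the resistant groups each overlapped its neighbour in the order of the levels. The mean was 9.68-fold lower in Huh7-IR (6.15 ± 3.26 CPM, SD, n = 2) than in parental cells (59.5 ± 0.161), at a log2 fold change of -3.16 with an SE of 0.40 (limma, adjusted p = 4.07e-05). With the same SE, Huh7-CR cells were at -2.58 (adjusted p = 0.000333), Hep3B-IR cells at -1.67 (0.00744) and Hep3B-CR cells at -3.05 (0.000129). The call in Hep3B-IR cells was lost without Hep3B-IR replicate 1, at -1.39, and without Hep3B parental replicate 2, at -1.56.

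CXCL2 and CXCL3, close relatives of CXCL1 in the same cluster, were expressed at a lower level per kb than CXCL1. CXCL2 was at 14.3 and 5.57 CPM in Huh7 parental, 6.33 and 3.42 in DMSO, 3.61 and 4.12 in IR, and 4.92 and 6.67 in CR cells. In the Hep3B line it was at 3.89 and 4.85 CPM in parental, 5.48 and 3.37 in DMSO, 2.46 and 2.70 in IR, and 2.69 and 1.56 in CR cells. Huh7 parental replicate 1 stood above all other libraries. CXCL2 fell in Huh7-IR cells, at a log2 fold change of -1.05 with an SE of 0.37 (limma, adjusted p = 0.0292), but the value was -0.44 without Huh7 parental replicate 1 and -0.23 against the DMSO libraries, neither of them called. The call was also lost without Huh7-IR replicate 1, at -0.97, and without Huh7-IR replicate 2, at -1.12. In Huh7-CR cells CXCL2 was not called, at -0.58, and leaving out Huh7 parental replicate 1 gave 0.036 while leaving out replicate 2 gave -1.19, which was called. It was not called in Hep3B-IR cells, at -0.58 (95% interval -1.39 to 0.23), nor in Hep3B-CR cells, at -0.80 (-1.61 to 0.01).

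CXCL3 fell in 3 of the 4 comparisons. It was at 3.97 and 2.40 CPM in Huh7 parental, 2.17 and 0.862 in DMSO, 1.53 and 1.09 in IR, and 1.53 and 1.57 in CR cells, so that the DMSO cells of this line overlapped the resistant ones. In the Hep3B line it was at 4.15 and 5.28 CPM in parental, 4.77 and 3.04 in DMSO, 1.81 and 2.83 in IR, and 1.43 and 1.29 in CR cells. There, all resistant libraries lay below all parental and DMSO libraries. On the log2 scale, Huh7-IR cells were at -0.84 with an SE of 0.28 (limma, adjusted p = 0.0230), Huh7-CR cells at -0.69 (0.0692, not called), Hep3B-IR cells at -0.79 (0.0487) and Hep3B-CR cells at -1.27 (0.00398). The call in Huh7-IR cells was lost without Huh7 parental replicate 1, at -0.56, without Huh7-IR replicate 2, at -0.70, and against the DMSO libraries, at -0.078. The call in Hep3B-IR cells was lost when any 1 of its 4 libraries was left out, at -0.57 without Hep3B-IR replicate 1, -1.02 without Hep3B-IR replicate 2, -0.94 without Hep3B parental replicate 1 and -0.65 without Hep3B parental replicate 2. The call in Hep3B-CR cells held in all 17 alternatives run.

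CXCL5, which like its relatives binds CXCR2, separated the lines. In Hep3B cells it was at 138 and 202 CPM in parental, 146 and 130 in DMSO, 33.2 and 53.9 in IR, and 46.2 and 55.2 in CR cells, and the resistant libraries lay far below the others. It fell 3.90-fold in Hep3B-IR cells (log2 fold change -1.95, SE 0.35, limma, adjusted p = 0.00124) and 3.35-fold in Hep3B-CR cells (-1.71, adjusted p = 0.00252), in all 17 alternatives run for each. In Huh7 cells it was at 171 and 108 CPM in parental, 63.0 and 33.6 in DMSO, 61.3 and 85.4 in IR, and 120 and 196 in CR cells. Thus the lowest Huh7 library was a DMSO library and the highest a CR library. CXCL5 fell in Huh7-IR cells against parental cells, at -0.90 (adjusted p = 0.0446), but the value was 0.64 against the DMSO libraries and 0.20 against DMSO replicate 1 alone, neither of them called. The call was also lost without Huh7 parental replicate 1, at -0.57, and without Huh7-IR replicate 1, at -0.66. In Huh7-CR cells the value was 0.17 against parental cells (not called), -0.18 without Huh7-CR replicate 2, -0.16 without Huh7 parental replicate 2, and 1.71 against the DMSO libraries, which was called.

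CXCL8 (interleukin-8), the ligand of both CXCR1 and CXCR2, fell in Huh7-IR and Hep3B-CR cells. In Huh7 cells it was at 124 and 57.1 CPM in parental, 62.2 and 28.9 in DMSO, 18.5 and 20.0 in IR, and 44.5 and 57.4 in CR cells. In Hep3B cells it was at 115 and 111 CPM in parental, 112 and 76.4 in DMSO, 117 and 128 in IR, and 51.2 and 30.7 in CR cells. The Huh7-IR libraries were the lowest and the Hep3B-IR libraries the highest of the 8 groups by mean, and both Hep3B-IR libraries lay above those of Hep3B parental cells, although by less than the error of the fit. The mean was 4.70-fold lower in Huh7-IR than in parental cells (log2 fold change -2.07, SE 0.38, limma, adjusted p = 0.000628), and this call held in all 18 alternatives run. In Hep3B-CR cells it was 2.76-fold lower (-1.49, adjusted p = 0.00921), a call that was lost without Hep3B-CR replicate 2, at -1.13. It was not called in Hep3B-IR cells, at 0.12 (95% interval -0.72 to 0.95), nor in Huh7-CR cells, at -0.72 (-1.56 to 0.11). The Huh7-CR value was -1.27 and called without Huh7 parental replicate 2, 0.24 against the DMSO libraries and -0.29 against DMSO replicate 1 alone.

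CCL20, the ligand of CCR6, had the largest log2 fold change of the tested members on the log2(CPM + 1) scale, which understates the changes of genes as low as CCL2. In Huh7 cells it was at 143 and 151 CPM in parental, 134 and 287 in DMSO, 2.30 and 3.75 in IR, and 8.83 and 13.1 in CR cells. The mean fell 48.5-fold in Huh7-IR cells (3.03 ± 1.03 CPM against 147 ± 6.16, SD, n = 2) and 13.4-fold in Huh7-CR cells. The log2 fold changes were -5.22 (SE 0.54, limma, adjusted p = 8.87e-06) and -3.65 (0.000234), and both calls held in all alternatives run. In Hep3B cells CCL20 was at 57.3 and 123 CPM in parental, 128 and 122 in DMSO, 19.0 and 73.8 in IR, and 12.1 and 7.77 in CR cells. It fell 9.10-fold in Hep3B-CR cells (-2.99, adjusted p = 0.00112). In Hep3B-IR cells the replicates overlapped the parental ones and CCL20 was not called, at -1.14 (95% interval -2.32 to 0.05). Hep3B-IR replicate 2, with the higher CCL20 level, also had the higher summed hepatocyte markers (10336 against 3573 CPM). Without it the change was -2.09 and called, and against the DMSO libraries it was -1.70 and called. Against DMSO replicate 1 alone it was -1.74 and not called (adjusted p = 0.0921).

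CCL2 reached 1 CPM in the resistant Huh7 libraries alone. It was at 0.131 and 0.0134 CPM in parental, 0.0138 and 0 in DMSO, 1.89 and 7.72 in IR, and 1.17 and 1.18 in CR cells of the Huh7 line. In the Hep3B line it had no read in the parental and IR libraries and at most 0.0381 CPM elsewhere, where a count of 0 allows up to 3 reads per library. All 4 resistant Huh7 libraries lay above all other libraries. CCL2 passed the filter through these libraries alone, so that it had to be higher there. The log2 fold change on the log2(CPM + 1) scale was 2.23 in Huh7-IR (SE 0.34, limma, adjusted p = 0.000162) and 1.02 in Huh7-CR cells (0.0305). The first call held in all 18 alternatives run, at 1.03 to 5.90. The second was lost when any 1 of its 4 libraries was left out, at 0.94 to 1.10, at a pseudocount of 4 CPM, at 0.35, without the filter, and against DMSO replicate 1 alone. Of these values, 1.02 came without Huh7-CR replicate 1 or 2, 1.10 without Huh7 parental replicate 1 and 0.94 without Huh7 parental replicate 2.

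LIF, a gp130 cytokine known for blocking differentiation of stem cells, rose in all 4 resistant lines. In Huh7 cells it was at 2.998 and 2.48 CPM in parental, 1.77 and 2.63 in DMSO, 39.0 and 52.9 in IR, and 53.1 and 48.2 in CR cells. In Hep3B cells it was at 10.6 and 6.82 CPM in parental, 6.92 and 11.7 in DMSO, 40.0 and 41.0 in IR, and 48.9 and 34.4 in CR cells. The resistant groups overlapped each other across both lines and lay above all parental and DMSO libraries. The mean rose 16.8-fold (IR) and 18.5-fold (CR) in Huh7, and 4.65-fold (IR) and 4.79-fold (CR) in Hep3B cells. In the same order the log2 values were 3.64, 3.79, 2.12 and 2.14 with an SE of 0.28 (limma, adjusted p = 7.62e-07, 8.42e-07, 0.000139 and 0.000109). All 4 calls held in every alternative run, including both DMSO references.

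IL11, which acts through IL11RA and gp130, rose in Hep3B cells. It was at 0.458 and 0.703 CPM in parental, 2.37 and 1.60 in DMSO, 8.63 and 6.11 in IR, and 22.7 and 15.7 in CR cells of the Hep3B line, and the 4 groups did not overlap. It rose 12.7-fold in Hep3B-IR (log2 fold change 2.39, SE 0.26, limma, adjusted p = 3.65e-05) and 33.1-fold in Hep3B-CR cells (3.66, 1.47e-06), and both calls held in all 17 alternatives run for each. Since DMSO cells lay between parental and resistant cells, the values against the DMSO libraries were smaller, at 1.48 and 2.75, and called. In Huh7 cells IL11 was at 0.451 and 0.629 CPM in parental, 0.179 and 0.747 in DMSO, 1.19 and 0.729 in IR, and 0.896 and 0.471 in CR cells. These groups overlapped or nearly so, and IL11 was not called in Huh7-IR, at 0.34 (95% interval -0.22 to 0.91), nor in Huh7-CR cells, at 0.12 (-0.45 to 0.69). Both values changed sign after quantile normalization, to -0.034 and -0.14, and the latter also without Huh7-CR replicate 1, at -0.064.

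IL6 was close to silent. It had 2 and 0 reads in Huh7 parental and 3 and 3 in DMSO, 127 and 23 in IR, and 22 and 13 in CR libraries. In the Hep3B line it had 0 and 1 reads in parental, 0 and 0 in DMSO, 5 and 3 in IR, and 28 and 15 in CR libraries. The highest level, in Huh7-IR replicate 1, was 2.11 CPM, and the next was 0.493 CPM in Huh7-IR replicate 2. All libraries of Huh7-IR, Huh7-CR and Hep3B-CR cells held more reads than any parental or DMSO library, but parental and DMSO cells were at or under the 3 reads that a count of 0 allows. When all 23311 genes with a read were tested without the filter, IL6 was called in Huh7-IR cells, at 1.09 (SE 0.24, limma, adjusted p = 0.00523), and not in Huh7-CR (0.30) or in resistant Hep3B cells (0.067 in IR and 0.40 in CR).

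The cells labelled DMSO served as the second untreated group. In Huh7 DMSO cells 1 of the 9 members was called, where 4.83% of all genes were. This was CXCL5, which fell by 1.54 on the log2 scale (SE 0.35, limma, adjusted p = 0.0313), and the call was lost without Huh7 DMSO replicate 2, at -1.09, without Huh7 parental replicate 1, at -1.21, and without Huh7 parental replicate 2, at -1.87. CXCL8 (-0.97), CXCL2 (-0.82) and CXCL3 (-0.76) had negative values with an unadjusted p under 0.05 and were not called. Without Huh7 DMSO replicate 1, the library with the lower hypoxia sum, 3 members were called lower, CXCL5 (-1.98) among them. In Hep3B DMSO cells 0 of the 9 were called by limma, where 1.58% of all genes were. With an unadjusted p under 0.05 the count was 1 member, IL11 (0.91, adjusted p = 0.111), with edgeR it was 0 and with DESeq2 it was 1. The mean levels of CXCL2, CXCL3, CXCL5 and CXCL8 were lower in Huh7 DMSO than in parental cells, and the plot of both references shows the values of these genes moving up in Huh7-IR and Huh7-CR cells when DMSO libraries were the reference.

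**Figure D3:**
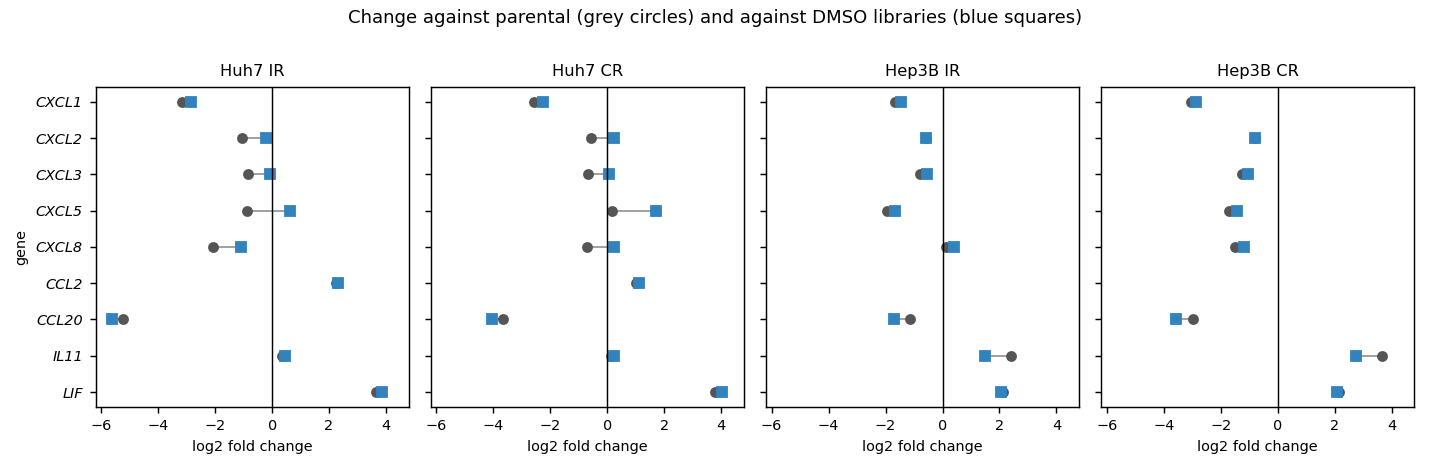
Log2 fold change (horizontal axis) of the tested genes (vertical axis) in the 4 resistant lines against parental libraries (grey circles) and against DMSO libraries (blue squares); CCL2 is left out in Hep3B cells, where it was at the floor. In Huh7-IR cells CXCL5 moves from -0.90 to 0.64 and CXCL8 from -2.07 to -1.10, whereas CXCL1, CCL20 and LIF stay on the same side of 0 in all 4 panels.

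Both ways of raising resistance were then compared with each other. In Huh7 cells 2 of the 9 members differed between IR and CR cells, where 13.7% of all genes did. CXCL8 was lower in IR cells (log2 difference -1.35, SE 0.38, limma, adjusted p = 0.0349) and CCL2 higher (1.21, adjusted p = 0.0346). CCL20 (-1.57, adjusted p = 0.0670) and CXCL5 (-1.07, adjusted p = 0.0571) were not called. The CXCL8 call was lost when any 1 of the 4 libraries was left out, at -1.53 and -1.17 without Huh7-CR replicates 1 and 2 and at -1.29 and -1.41 without Huh7-IR replicates 1 and 2. The CCL2 call was lost at 1.21 without either Huh7-CR replicate and at 0.41 without Huh7-IR replicate 2. It was also lost with edgeR (1.94, adjusted p = 0.111), with DESeq2 (1.91, adjusted p = 0.183), after quantile normalization, without the filter and with the groups compared alone. In Hep3B cells 4 of the 9 differed, where 11.7% of all genes did. CXCL8 (1.61, SE 0.38, adjusted p = 0.0177), CXCL1 (1.38, SE 0.40, 0.0416) and CCL20 (1.85, SE 0.54, 0.0417) were higher in Hep3B-IR and IL11 (-1.27, SE 0.26, 0.00792) was higher in Hep3B-CR cells. LIF did not differ by more than its error in either line, at -0.15 (95% interval -0.75 to 0.45) in Huh7 and -0.019 (-0.62 to 0.58) in Hep3B cells.

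These differences within Hep3B cells rested on few libraries. CXCL1 lost its call when any 1 of the 4 was left out, at 1.66 and 1.09 without Hep3B-CR replicates 1 and 2 and at 1.66 and 1.10 without Hep3B-IR replicates 1 and 2. CXCL8 lost it at 1.25 without Hep3B-CR replicate 2 and at 1.67 and 1.54 without Hep3B-IR replicates 1 and 2. CCL20 lost it at 2.14 and 1.56 without Hep3B-CR replicates 1 and 2 and at 0.90 without Hep3B-IR replicate 2, the library with more hepatocyte markers. IL11 lost it at -1.01 without Hep3B-CR replicate 1 and at -1.05 without Hep3B-IR replicate 2, and in the count tests edgeR (-1.33) and DESeq2 (-1.33). Hep3B-IR cells also kept more hepatocyte marker RNA than Hep3B-CR cells, and its part in the higher CCL20, CXCL1 and CXCL8 levels was not tested.

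Parental Huh7 and Hep3B cells differed in 1 of the 9 members, where 42.6% of all genes differed. LIF was lower in Huh7 (2.74 ± 0.368 CPM, SD, n = 2) than in Hep3B cells (8.71 ± 2.67), at a log2 difference of -1.35 (SE 0.28, limma, adjusted p = 0.00143), in all 14 alternatives run. The levels of the CXC members and of CCL20 were not called different between the parental lines, with log2 differences between -0.47 for CXCL3 and 0.91 for CXCL2.

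An interaction contrast then asked whether the change from parental to resistant cells, averaged over IR and CR, differed between the lines. Of the 9 members 5 differed, where 29.4% of all genes did. LIF (3.71 in Huh7 and 2.13 in Hep3B cells, difference 1.58, SE 0.34, limma, adjusted p = 0.00402) and IL11 (0.23 and 3.03, difference -2.80, SE 0.32, adjusted p = 5.94e-05) differed in all 22 alternatives run. CCL20 fell further in Huh7 cells (-4.44 and -2.06, difference -2.37, SE 0.67, adjusted p = 0.0173). The change of CXCL5 was -0.36 in Huh7 and -1.83 in Hep3B cells (difference 1.47, SE 0.43, adjusted p = 0.0217). That of CCL2 was 1.63 and 0.018 (difference 1.61, SE 0.42, adjusted p = 0.0120), but CCL2 passed the filter through resistant Huh7 libraries alone and had to differ. CXCL1 (-0.51), CXCL2 (-0.12), CXCL3 (0.27) and CXCL8 (-0.71) were not called different between the lines. The calls of CXCL5, CCL2 and CCL20 were lost without Huh7 parental replicate 2, at 1.14, 1.53 and -2.33, that of CCL20 also without Huh7 parental replicate 1, at -2.41, or Hep3B parental replicate 1, at -1.82, and that of CXCL5 also without Hep3B parental replicate 2, at 1.19. That of CCL2 was also lost at a pseudocount of 4 CPM, at 0.68, with edgeR, at 3.05, and with DESeq2, at 3.41.

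The receptors of these ligands were unequally present. CXCR1, CXCR2 and CCR2 stayed at 0.11 CPM or less in all 16 libraries and were not tested. CCR6, the receptor of CCL20, was at 49.9 and 56.5 CPM in Huh7 parental, 44.1 and 33.6 in DMSO, 0.332 and 0.193 in IR, and 1.25 and 2.08 in CR cells. In Hep3B cells it was at 2.15 and 6.58 CPM in parental, 3.98 and 7.72 in DMSO, 0.428 and 0.839 in IR, and 0.212 and 0.286 in CR cells. CCR6 thus fell in the same cells as its ligand, with log2 fold changes of -5.42 (IR) and -4.36 (CR) in Huh7, and -1.59 (IR) and -1.97 (CR) in Hep3B cells, each called, including Hep3B-IR cells, where CCL20 was not. Of the 11 chemokine receptors listed, 3 were tested. CXCR4, the receptor of CXCL12, fell in Huh7-IR (-1.43) and rose in Hep3B-IR (2.12) and Hep3B-CR cells (1.21), while it also fell in Huh7 DMSO (-1.42) and Hep3B DMSO cells (-1.26). ACKR3, a scavenger of the same ligand, rose in Huh7-IR (1.41), Huh7-CR (2.31) and Hep3B-CR cells (1.20), whereas Hep3B-IR cells were at -0.80, not called. It was at 0.0291 and 0.0134 CPM in Huh7 parental cells. Outside the groups in which it rose, ACKR3 reached 1 CPM in Hep3B parental replicate 1 alone. It thus passed the filter only with the libraries of those groups, so that it had to be high there.

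Of the 6 receptor chains of the IL6 family, 5 were tested, CNTFR being near 0. In Huh7-IR cells 4 rose and 1 fell, in Huh7-CR cells 2 rose and 1 fell, and in both resistant Hep3B lines 2 rose and 1 fell. The shared chain IL6ST was high in every library, at 316 and 325 CPM in Huh7 parental, 430 and 612 in Huh7-IR and 514 and 577 in Huh7-CR cells, and at 239 and 238 CPM in Hep3B parental cells, 401 and 409 under IR and 274 and 266 under CR. It rose by 0.68 (Huh7-IR), 0.76 (Huh7-CR) and 0.76 (Hep3B-IR) on the log2 scale and was at 0.18 in Hep3B-CR cells, not called. LIFR, the specific chain for LIF, separated the lines. It was at 248 and 257 CPM in Huh7 parental, 142 and 108 in Huh7-IR and 130 and 157 in Huh7-CR cells, a fall of -1.02 and -0.82, and between 0.579 and 2.18 CPM in all 8 Hep3B libraries. In the Hep3B-IR and Hep3B-CR cells in which LIF rose, LIFR was not called (0.077 and 0.66). OSMR, the chain for oncostatin M, rose in all 4 comparisons (1.03, 1.11, 0.98 and 1.35), from 140 and 104 CPM in Huh7 parental and from under 0.2 CPM in Hep3B parental cells, where it reached 2.38 CPM at most.

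IL11RA and IL6R, the specific chains for IL11 and IL6, did not follow their ligands in a common way. IL11RA was at 4.20 and 4.23 CPM in Hep3B parental cells, 1.94 and 1.61 under IR and 1.56 and 2.09 under CR. It fell there by 0.91 and 0.89 on the log2 scale (SE 0.19, limma, adjusted p = 0.00352 and 0.00354), in the same cells in which IL11 rose. In Huh7-IR cells IL11RA rose (0.88), but so it did in Huh7 DMSO cells (0.96), and in Huh7-CR cells it was at 0.26, not called. IL6R rose in Huh7-IR (1.34) and Hep3B-CR cells (1.27). Its level in Huh7-IR cells, 14.7 and 14.2 CPM, lay within that of Huh7 DMSO cells, 18.4 and 12.5 CPM, and the Hep3B-CR replicates were apart, at 17.7 and 42.8 CPM.

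**Figure D4:**
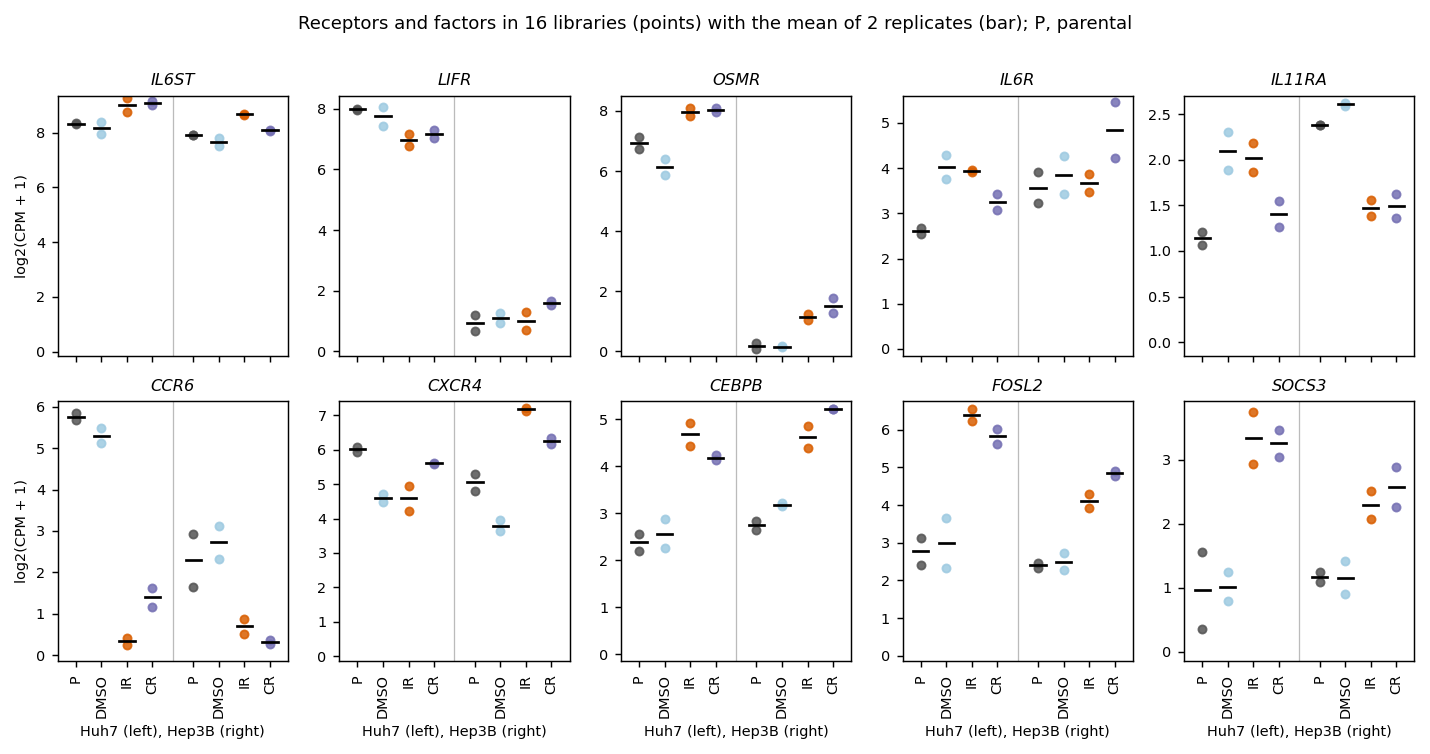
Level of 6 receptor genes of the IL6 family and of chemokines (IL6ST, LIFR, OSMR, IL6R, IL11RA, CCR6), of CXCR4, and of CEBPB, FOSL2 and SOCS3 as log2(CPM + 1) (vertical axis) by group (horizontal axis), where points are libraries and bars are means of 2 replicates; the vertical scale differs between panels. LIFR and OSMR are high in Huh7 and near 0 in Hep3B cells, CCR6 is lower and CEBPB, FOSL2 and SOCS3 are higher in IR and CR than in parental cells of both lines.

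Of 12 tested genes of the JAK and STAT3 pathway, 8 rose and 0 fell in Huh7-IR, 5 rose and 0 fell in Huh7-CR, 2 rose and 1 fell in Hep3B-IR, and 3 rose and 1 fell in Hep3B-CR cells, with medians of 0.71, 0.48, 0.47 and 0.49. In the same order, 31.1%, 20.9%, 15.7% and 20.0% of all genes rose, so the counts in both Hep3B groups were near the background. SOCS3, the feedback inhibitor that STAT3 induces, rose in all 4, by 2.38, 2.29, 1.13 and 1.41. It was at 1.95 and 0.281 CPM in Huh7 parental and 6.66 to 12.4 CPM in the 4 resistant Huh7 libraries, and at 1.12 and 1.36 CPM in Hep3B parental and 3.20 to 6.42 CPM in the 4 resistant Hep3B libraries. In Huh7 cells SOCS2 (3.26 in IR and 3.12 in CR) and STAT5A (1.79 and 0.93) rose too. STAT3 itself rose in Huh7-IR cells (0.73) and was at 0.53, 0.54 and 0.42 in the others, under the fold threshold. The acute phase genes that IL6 is known to induce in hepatocytes mostly fell or were not called. Of 7 tested in Huh7 cells, 6 fell under IR and 5 under CR, while in Hep3B cells 3 fell under IR and 4 under CR, and 1 rose in each. In the same order, 17.8%, 13.6%, 11.4% and 12.3% of all genes fell. The fibrinogen gene FGG was at 411 and 348 CPM in Huh7 parental and 4.67 and 31.7 CPM in Huh7-IR cells and fell in all 4 comparisons (-4.80, -2.52, -2.63 and -1.83), as did FGA (-5.09, -3.17, -1.96 and -3.78). These genes are made by hepatocytes, whose markers fell as well, and the fibrinogen gene FGB was counted in both lists. CRP and SAA1 were under 0.2 CPM in all libraries but Hep3B-IR replicate 2, where CRP was at 2.52 CPM.

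Of the 10 NF-kB subunits and kinases, 4 rose and 1 fell in Huh7-IR, 2 rose and 1 fell in Huh7-CR, 1 rose in Hep3B-IR, and 2 rose and 1 fell in Hep3B-CR cells, all near the shares over all genes given above. In resistant Huh7 cells NFKB1 fell (-1.32 in IR and -0.83 in CR), while NFKB2 (1.55 and 1.19) and RELB (2.20 and 1.40), the subunits of the non-canonical pathway, rose. RELB also rose in Hep3B-CR cells (0.98), where NFKB2 was at 0.60, not called. RELA rose in Huh7-IR cells (1.42) and was not called elsewhere. Among 12 genes known as NF-kB targets and feedback inhibitors, 8 rose and 1 fell in Huh7-IR, 5 rose and 1 fell in Huh7-CR, 0 were called in Hep3B-IR (limma), and 2 rose and 2 fell in Hep3B-CR cells. In the same order, 31.1%, 20.9%, 15.7% and 20.0% of all genes rose, and 17.8%, 13.6%, 11.4% and 12.3% fell. In Huh7-IR cells BIRC3 (1.55), TRAF1 (1.84) and TNFAIP3 (1.32) rose while CXCL1, CXCL8 and CCL20 fell. NFKBIZ, a nuclear cofactor of NF-kB, fell in Huh7-IR (-1.11), Huh7-CR (-1.43) and Hep3B-CR cells (-2.23) and was at -0.52 in Hep3B-IR cells, not called. NFKBIA fell in Hep3B-CR cells (-0.71) and was not called in the others.

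Of the 11 AP-1 and C/EBP genes, 4 rose in Huh7-IR, 3 in Huh7-CR and 5 in each of the Hep3B lines, and 1 fell in each comparison. CEBPB, a C/EBP factor of inflammation, was at 4.93 and 3.59 CPM in Huh7 parental and 16.5 to 29.3 CPM in resistant Huh7 libraries, and at 5.28 and 6.16 CPM in Hep3B parental and 19.9 to 36.5 CPM in resistant Hep3B libraries. It rose by 2.30, 1.80, 1.88 and 2.47, and FOSL2, a subunit of AP-1, by 3.61, 3.05, 1.72 and 2.45. FOSL1 rose in 3 comparisons (2.12, 1.36 and 1.94) and was at 0.85 in Hep3B-IR cells, not called. CEBPA, the C/EBP factor of differentiated hepatocytes, was the gene that fell in all 4 (-4.42, -4.89, -1.43 and -1.27). Of 8 factors that bind AU-rich transcripts, 1 rose in each comparison, and 1 fell in each but Hep3B-CR, where 2 fell, beside the same shares of all genes. The gene that rose each time was ZFP36L1 (1.48, 1.26, 1.14 and 0.98). HNRNPD fell in resistant Huh7 cells (-1.31 in IR and -0.83 in CR), and RC3H1 in resistant Hep3B cells (-0.67 and -0.83).

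Of the upstream inflammatory signals, TNF and the IL1 genes were low. TNF stayed at 1.31 CPM or less and IL1A at 0.746 CPM or less, and neither was tested. IL1B was at 0.0146 and 0.0134 CPM in Huh7 parental and 1.17 to 1.87 CPM in the 4 resistant Huh7 libraries, with log2 fold changes of 1.33 and 1.18, both called. IL1B passed the filter through these libraries alone, so that it had to differ, and it was not called in Hep3B cells (0.19 and 0.054). Of the 14 tested cytokines, receptors and adaptors of this list, 7 rose and 3 fell in Huh7-IR, 6 rose and 2 fell in Huh7-CR, 2 rose and 1 fell in Hep3B-IR, and 6 rose and 2 fell in Hep3B-CR cells. In the same order, 31.1%, 20.9%, 15.7% and 20.0% of all genes rose, and 17.8%, 13.6%, 11.4% and 12.3% fell. The 14 include IL1B and TLR3. TLR3 passed the filter through Huh7-IR, Huh7-CR and Hep3B-CR libraries alone, so that it had to be higher there. TLR2, a receptor for bacterial lipopeptides, rose in both resistant Huh7 groups (2.83 and 2.62). IL18 moved in opposite directions, down in Huh7-IR (-1.16) and Huh7-CR (-1.35) and up in Hep3B-IR (3.74) and Hep3B-CR cells (3.11).

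Few of the other chemokines reached a measurable level. Of 32 listed, 9 were tested, of which 1 rose and 3 fell in Huh7-IR, 2 rose and 3 fell in Huh7-CR, and 2 rose and 2 fell in each of the Hep3B lines. CXCL6, the neighbour of CXCL8 in the cluster and a ligand of the same receptors, was at 7.35 and 5.38 CPM in Huh7 parental and 0.0166 and 0.0644 CPM in Huh7-IR cells. It fell in Huh7-IR (-2.81), Hep3B-IR (-1.20) and Hep3B-CR cells (-2.70) and was at -0.80 in Huh7-CR cells, not called. CXCL16, a membrane-bound ligand of CXCR6, fell in all 4 (-4.03, -3.43, -1.36 and -1.16). CXCL12, the ligand of CXCR4, was at 42.3 and 38.7 CPM in Hep3B parental cells, 293 and 202 under IR and 125 and 92.5 under CR (2.56 and 1.39, both called) and stayed at 1.16 CPM or less in Huh7 cells. Of the 8 other members of the IL6 family, 3 were tested, and CLCF1 rose in both resistant Huh7 groups (1.73 and 1.58) but was not called in Hep3B cells (0.13 and 0.45). OSM, the oncostatin M gene, had almost no reads.

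For each tested member, the genes whose log2(CPM + 1) followed it most closely over the 16 libraries were listed by Pearson's correlation, as a description, since the libraries share their line, group and depth. For LIF these were A4GALT (0.98), MAML2 (0.97) and LRRN1 (0.97). For CCL20 they were SERPIND1 (0.99), GPC3 (0.96) and TMEM97 (0.96), of which SERPIND1 and GPC3 are known from the liver and from HCC. For IL11 they were SPX, LAT2 and TM6SF1 (0.97 each), for CXCL1 NCAPD3, H2AC4 and DNA2 (0.97 each) and for CCL2 NPY4R, NPY4R2 and KLRC4-KLRK1 (0.98 each). For CXCL8 the second closest gene was its neighbour CXCL6 (0.93), after GEMIN6 (0.93) and before ALG14 (0.90). The closest genes of CXCL2, CXCL3 and CXCL5 were SPR (0.89), FAM133DP (0.93) and SORD (0.90).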

How the data were processed

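Poly(A) RNA was sequenced in 2 libraries per group from Huh7 and Hep3B cells (parental, DMSO, IR and CR), while the study's methods state triplicates. The authors mapped reads to hg19 with STAR, kept unique hits, counted reads over RefSeq exons with QuasR and deposited CPM for 26258 gene IDs; symbols were found for 26111. The CPM steps returned whole reads for 100% of values within 0.05 reads, with totals of 46613302 to 76860251 reads. Floors at 0 reads cover counting error only. The intervals given come from the limma fit and its SE, so they measure the spread between these libraries, which may be technical.

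Log2(CPM + 1) was fitted with limma 3.58.1 (mean-variance trend) in R 4.3.3, all 16 libraries in a common model, over the 15019 genes that reached 1 CPM in 2 or more libraries. Calls needed a Benjamini-Hochberg adjusted p under 0.05 together with a log2 fold change of 0.58 or more in either direction, the fold threshold of the study. The script was tested on simulated data. On the recovered reads, edgeR 4.0.16 called 7680 genes in Huh7-IR cells, where limma called 7336, and DESeq2 1.42.0 was run too. Other alternatives were the pseudocount, the filter, TMM factors, quantile normalization, the groups compared alone, a replicate block, DMSO libraries as reference and leaving out each library. DMSO replicate 1 alone, parental and DMSO libraries together, and a crossed block were chosen after seeing the data. All members are described, and of the other lists a fixed set plus up to 3 genes called the same way in at least 2 of the 4 comparisons, with the largest mean change. Members and lists were chosen with earlier results of these data known. Promoter letters are from RefSeq (GRCh38.p14), coordinates from GRCh37 and GENCODE.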

Additional observations from a re-analysis of the deposited data

Results flagged for a closer look

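The change from parental to resistant cells differed between Huh7 and Hep3B for 5 members by the interaction contrast of limma, with log2 differences (Huh7 minus Hep3B) of 1.47 for CXCL5, 1.61 for CCL2, -2.37 for CCL20, -2.80 for IL11 and 1.58 for LIF. Adjusted p was 0.0217, 0.0120, 0.0173, 5.94e-05 and 0.00402 in the same order. CCL20 and LIF moved the same way in both lines and differed in size. IL11 was called in the Hep3B line only and CCL2 in the Huh7 line only, where all 4 resistant libraries of that line lay above its parental libraries. CCL2 passed the filter through the resistant Huh7 libraries alone, so that it had to differ. Of the 9 hepatocyte markers, 8 fell in Huh7-IR and 3 in Hep3B-IR cells, where 17.8% and 11.4% of all genes did. The part of these markers in the differences was not tested.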

How the results depend on the processing

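The rises of LIF, the falls of CXCL1 and CCL20 in Huh7 cells, of CXCL8 and the rise of CCL2 in Huh7-IR cells, the falls of CXCL5 and rises of IL11 in both resistant Hep3B lines, and the falls of CXCL1, CXCL3 and CCL20 in Hep3B-CR cells kept their call in all alternatives run. CCL2 had to be higher in resistant Huh7 cells in each alternative that kept the filter. Over called members, 540 results of alternatives kept their side, 97 lost the call and 2 changed sign, and over uncalled ones 147 kept their side, 15 became called and 9 changed sign. The cause was not tested.

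Counts of members called moved as follows. In Huh7-IR cells 8 members became 5 with the groups compared alone, 5 against the DMSO libraries, 5 against DMSO replicate 1 and 5 against parental and DMSO libraries together. In Huh7 DMSO cells 1 member became 4 with unadjusted p, and 0 without the filter, with the groups compared alone and with the crossed block. In Hep3B DMSO cells 0 became 1 with unadjusted p and 1 with DESeq2. Between Huh7-IR and Huh7-CR cells 2 became 4 with unadjusted p, 0 without the filter, 1 with edgeR and 0 with the groups compared alone. Between Hep3B-IR and Hep3B-CR cells 4 became 2 at a pseudocount of 4 CPM, 2 without the filter and 1 with the groups compared alone. Between parental lines 1 became 2 with unadjusted p, TMM factors, quantile normalization and edgeR, and 3 with DESeq2. Leaving out single libraries gave 5 to 8 members in Huh7-IR, 3 to 5 in Hep3B-IR and 0 to 3 in Huh7 DMSO cells, 0 to 1 between Huh7-IR and Huh7-CR, 0 to 2 between Hep3B-IR and Hep3B-CR, 1 to 2 between parental lines and 2 to 5 in the difference between lines. Where a group was left with 1 library, it was assumed to vary like the others.

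Signs changed for CXCL5 in Huh7-IR cells (0.64 against DMSO libraries, 0.20 against DMSO replicate 1), and in Huh7-CR cells for CXCL5 (-0.18 without Huh7-CR replicate 2, -0.16 without Huh7 parental replicate 2), CXCL2 (0.036 without Huh7 parental replicate 1, 0.24 against DMSO libraries), CXCL3 (0.071) and CXCL8 (0.24, both against DMSO libraries). Against DMSO replicate 1 alone CXCL2, CXCL3 and CXCL8 kept their sign (-0.12, -0.31 and -0.29). IL11 changed sign in Huh7-IR (-0.034) and Huh7-CR cells (-0.14) after quantile normalization and in Huh7-CR cells without replicate 1 (-0.064). Leaving out single libraries in Huh7-CR cells gave -0.18 to 0.52 for CXCL5, -1.19 to 0.036 for CXCL2 and -0.064 to 0.30 for IL11.

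The replicate numbers are shared across groups, and nothing says that they pair the samples. Replicate differences correlated between -0.22 and 0.44 over the 28 pairs of groups, 13 of them over 0.1 and 5 under -0.1. With the replicate block, 7 members were called in Huh7-IR cells, where CXCL5 was lost, 3 between Huh7-IR and Huh7-CR and 3 between Hep3B-IR and Hep3B-CR cells, and the count in each of the other comparisons was the same. With the crossed block, 6 members were called in Huh7-IR and 0 in either DMSO group. Genes under about 1 CPM, such as IL6 and CCL2, were limited by depth.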
